A study of Homo sapiens with 12 samples.

Results

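The regions described here are stretches of DNA at which a control immunoprecipitation, made with non-specific IgG, gave at least 50 sequences. They were taken from 8 lists of ChIP-Seq regions, and the members are the autosomal regions of any list with 50 or more IgG sequences, outside a window around the histone gene cluster on the short arm of chromosome 6 and another on the long arm of chromosome 1. Of 1636159 listed regions, 1605062 were autosomal and 1285 were members, and another 32 with such counts were left out because they lay in the histone clusters. Regions that overlapped by at least 1 bp over the lists were merged, which gave 488 loci. The IgG count chose these regions, so their IgG counts and all values that rest on them are given as description and without a test.

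The study mapped 4 proteins, CASP8AP2, NPAT, HINFP and E2F1, in 2 human cell lines. hTERT-RPE1 is a retinal epithelial line immortalised with telomerase, and U2OS is an osteosarcoma line with a heavily rearranged genome. No treatment of the cells is given in the labels, and all libraries share formaldehyde cross-linking, shearing to 200 to 400 bp and 5 µg of antibody. Each protein and line has 1 library, and each line also has 1 rabbit and 1 goat IgG library, so nothing here has a replicate check. A region in these lists carries the number of ChIP sequences, the number of IgG sequences and the height of the ChIP pile at its summit.

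An IgG control shows where DNA is recovered without a specific antibody. Repeat arrays around centromeres, such as alpha satellite, are represented in a genome assembly by far fewer copies than cells hold, so sequences from many copies can be placed on the few that are assembled. Gained chromosome segments of a tumour line likewise give more sequences in every library made from it. These are general properties of such data, and their part in the counts below was not tested. All positions are on NCBI36 (hg18), and genes, repeats and sequences at the loci were not analysed here.

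The lists do not say which IgG library a count comes from. In U2OS, CASP8AP2 and NPAT shared 26 regions with identical ends, and the IgG counts were identical at all 26, as they were at 21 of 21 in hTERT-RPE1. E2F1 had 2 such regions with each of these lists in U2OS and 1 with CASP8AP2 in hTERT-RPE1, again with identical IgG counts. The 1 region that HINFP shared with E2F1 in hTERT-RPE1 had different IgG counts. The CASP8AP2, NPAT and E2F1 lists of a line therefore carry the counts of 1 IgG library, called rabbit IgG below after their antibodies. The HINFP lists are taken to carry those of another, called goat IgG after the host of that antibody. In U2OS, HINFP shared no such region with another list, so there this rests on the antibody host. The rabbit lists of a line are not independent of each other in IgG. IgG species, ChIP antibody and library set go together here and cannot be told apart.

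The members were a small part of each list but held a larger part of the IgG sequences in the listed regions, most of all for HINFP. They numbered 104, 93 and 120 in the CASP8AP2, NPAT and E2F1 lists of hTERT-RPE1, and 203, 174 and 149 in those of U2OS. The HINFP lists held 226 in hTERT-RPE1 and 216 in U2OS, although these were the shortest lists, with 64340 and 39603 regions. In the HINFP lists the members took 18.1% of all IgG sequences in listed autosomal regions of hTERT-RPE1 (60995 of 337237) and 20.95% in U2OS (60305 of 287788). In the rabbit lists this share ran from 1.05% (NPAT U2OS) to 2.91% (E2F1 U2OS). Both of these values rest on the rabbit IgG library of U2OS, with 478015 regions in the NPAT list and 125446 in the E2F1 list. The HINFP lists were shorter still, so the shares do not compare the IgG species at equal list length. The median IgG count of members was between 65 (CASP8AP2 U2OS) and 90 (HINFP U2OS), where the median over all listed autosomal regions was between 3 and 6. The highest count in a rabbit list was 4751 in hTERT-RPE1 and 4335 in U2OS, and in the HINFP lists 10611 and 11560.

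The median IgG count over all members was 74. Of the 1285 regions, 364 (28.3%) had fewer than 60 IgG sequences and 47 had 1000 or more. Exactly 50 IgG sequences were found in 43 regions and exactly 49 in 42. Just inside the threshold, with 50 IgG sequences each, were the E2F1 hTERT-RPE1 region at chromosome 5, 172671710 to 172674331, with 147 ChIP sequences, the E2F1 U2OS region at chromosome 18, 12692308 to 12693449, with 91, and the NPAT U2OS region at chromosome 22, 26645103 to 26645995, with 90. Just outside, with 49 IgG sequences each, were the CASP8AP2 hTERT-RPE1 region at chromosome 16, 44984841 to 44985597, with 117 ChIP sequences, the E2F1 U2OS region at chromosome 8, 124153545 to 124154724, with 117, and the NPAT hTERT-RPE1 region at chromosome 16, 44984846 to 44985645, with 103. The median raw ratio was 1.14 at a count of 50 and 1.04 at 49, so regions on either side of the threshold had similar ratios.

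Recurrence over the lists fell into a large group seen in few lists and a small one seen in all. A member was found in 1 list at 230 loci, in 2 lists at 146, in 3 at 36, in 4 at 12, in 5 at 12, in 6 at 6, in 7 at 5 and in all 8 at 41. Most loci were nevertheless listed more widely with smaller counts. At 182 loci every list had some region, and at 2 loci the region came from 1 list. A member was present in both cell lines at 179 loci, in U2OS alone at 213 and in hTERT-RPE1 alone at 96. The count in both lines rested on the goat lists, and was 81 without the HINFP list of U2OS and 87 without that of hTERT-RPE1. By IgG species, 181 loci had members in HINFP lists alone, 229 in rabbit lists alone, and 78 in both kinds. Of the 181 goat loci, 144 were also listed in a rabbit list, with a median of 28.5 rabbit IgG sequences at the list with most.

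**Figure D1:**
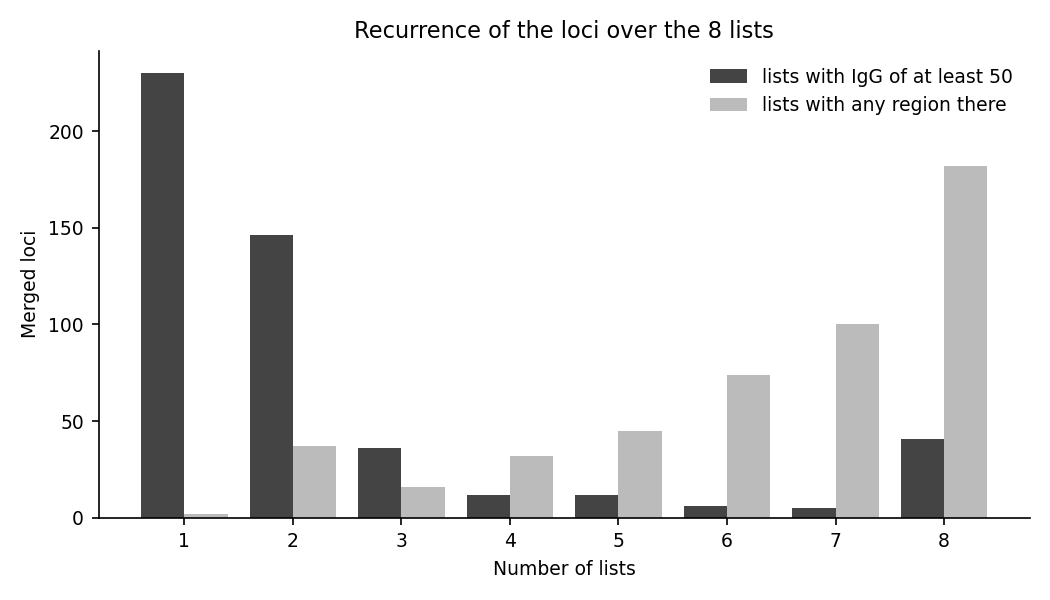
Number of merged loci (y axis) by the number of lists, from 1 to 8 (x axis), that held a region with at least 50 IgG sequences (dark bars) or any listed region (light bars) at the locus. Members were confined to 1 list at 230 loci and present in 8 lists at 41, whereas any region was listed in 8 lists at 182 loci.

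The goat and rabbit loci also differed in their cell lines. The 181 goat loci were divided into 90 with a member in both lines, 55 in hTERT-RPE1 alone and 36 in U2OS alone. The 229 rabbit loci were divided into 20 in both lines, 39 in hTERT-RPE1 alone and 170 in U2OS alone. Of the 78 loci with both, 69 had a member in both lines. Rabbit loci had a median length of 1673 bp and a median highest count of 58, and most of them were those in U2OS alone. The member regions at rabbit loci had a median length of 1594 bp in U2OS alone and 981 bp in hTERT-RPE1 alone. Goat loci had a median length of 862 bp and a median highest count of 80, and loci with both had 1734 bp and 188.

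Position was measured against the longest stretch of each chromosome without a region in any list, and on the acrocentric chromosomes 13, 14, 15, 21 and 22 against the stretch from the first base. On chromosome 1 this stretch ran from 121187177 to 141476774, on chromosome 9 from 47002371 to 66194395, on chromosome 16 from 35138346 to 44943089 and on chromosome 19 from 24377931 to 32423448, where centromeres and their flanking heterochromatin are known to lie. On chromosome 6 it ran from 28647447 to 32713307, on the short arm, and on chromosome 17 it was 431858 bp long at 41710563 to 42142420, so these are not centromeric stretches. Of the 488 loci, 133 (27.3%, 95% Wilson interval 23.5 to 31.4%) lay within 1 Mb of the stretch of their chromosome. This share depended on the IgG minimum, with 11.2% at a minimum of 30 and 50% at 100. Of all listed autosomal regions outside the histone clusters, 0.839% did (13462 of 1603547). With any unlisted stretch of at least 1 Mb, chosen after seeing the data, the shares were 27.5% of loci and 1.01% of listed regions.

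The share near the stretch was higher for loci with goat members and for loci with high counts. It was 51.9% (94 of 181, interval 44.7 to 59.1%) for loci with goat members alone, 39.7% (31 of 78, 29.6 to 50.8%) for loci with both, and 3.49% (8 of 229, 1.78 to 6.74%) for rabbit loci. Among goat loci present in both lines it was 63.3% (57 of 90). The share of all listed regions was pooled over the lists and not taken for HINFP and rabbit lists apart. At chromosome 2, 90960324 to 91687541, near the stretch, non-member regions per Mb were 5.60 and 7.95 times the list mean for HINFP. For NPAT they were 0.890 and 0.761 times (hTERT-RPE1 and U2OS). At chromosome 18, 16764864 to 16774522, also near it, HINFP had no non-member region. Of the 14 loci with a count of at least 1000, 10 lay within 1 Mb, and of the 58 with at least 200, 30 did. The loci that form the edge of a stretch do so by construction and have a distance of 1 bp. Most loci were on chromosome 8 (56), chromosome 1 (55), chromosome 10 (50), chromosome 2 (43), chromosome 22 (36), chromosome 17 (34) and chromosome 16 (32). On chromosome 10, 30 of 50 loci were near the stretch and on chromosome 2, 25 of 43, but on chromosome 22 0 of 36, on chromosome 8 5 of 56 and on chromosome 1 2 of 55.

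**Figure D2:**
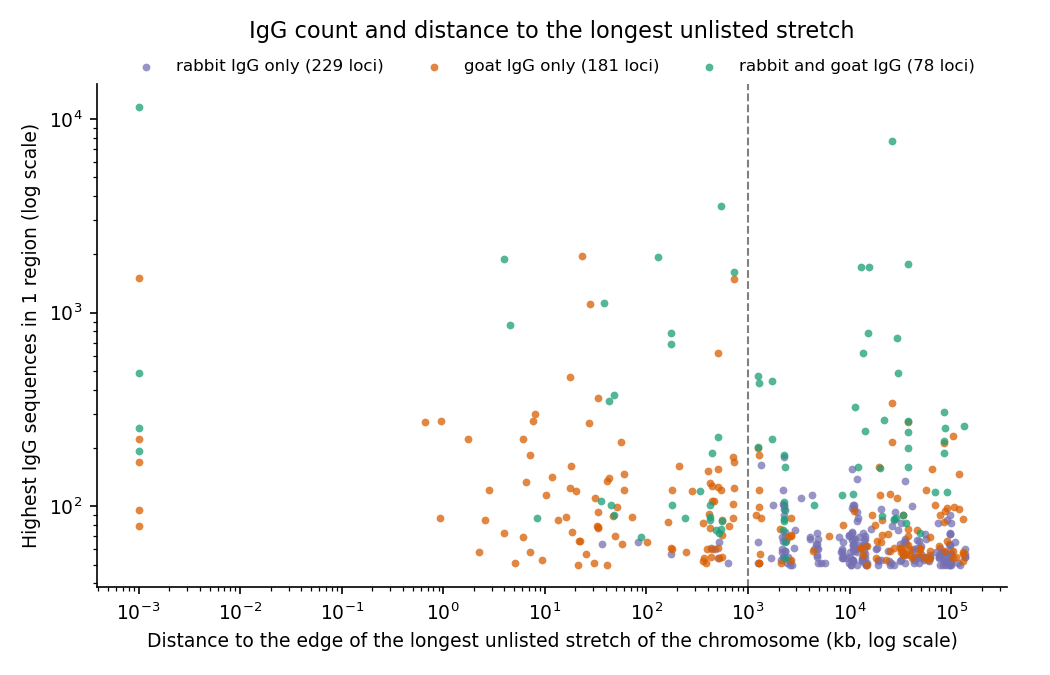
Highest IgG count in 1 region of each of the 488 loci (y axis, sequences, log scale) against the distance in kb from the locus to the edge of the longest unlisted stretch of its chromosome (x axis, log scale), coloured by the IgG species with at least 50 sequences; the dashed line is at 1 Mb. Goat loci spread to the left of the line (94 of 181), and rabbit loci sit to its right at low counts (8 of 229 lie to the left).

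The highest IgG counts were found at the edge of the unlisted stretch of chromosome 1, at 121185435 to 121187176. Goat IgG there was 10611 sequences in hTERT-RPE1 and 11560 in U2OS over 1742 bp, and rabbit IgG was 2547 to 2549 in hTERT-RPE1 and 3636 to 3638 in U2OS over 1197 to 1426 bp. ChIP sequences at this locus numbered 4611 for CASP8AP2, 4630 for NPAT, 2712 for E2F1 and 10179 for HINFP in hTERT-RPE1. In U2OS they numbered 6284, 7291, 3481 and 9601. ChIP counts were thus high in the same lists as IgG, and the raw ratio, (ChIP + 1)/(IgG + 1) without correction for depth, was between 0.831 (HINFP U2OS, 95% exact interval 0.808 to 0.853) and 2.004 (NPAT U2OS, 1.93 to 2.09).

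Next was chromosome 6, 58883621 to 58888028, at the edge of another unlisted stretch of more than 1 Mb on that chromosome. It had 4751 rabbit IgG sequences in hTERT-RPE1 and 4335 in U2OS, against 7810 and 7496 goat IgG sequences over a longer covered length (4390 and 4393 bp against 3074 to 3077 bp). Per kb, goat IgG was 1779 and 1706 and rabbit IgG 1544 to 1545 and 1409 to 1410, so the species differed less there than at the chromosome 1 locus. At chromosome 7, 61606162 to 61609510, 548 kb from the stretch, goat IgG was 3567 in hTERT-RPE1 and 3657 in U2OS, and rabbit IgG 1196 to 1210 and 1282 to 1286. In all 8 lists the raw ratios of these chromosome 6 and 7 loci were between 0.842 and 1.62.

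Some of the 10 loci with the highest counts were high in goat IgG and low in rabbit IgG. At chromosome 10, 41698061 to 41702226, 23.1 kb from the stretch, goat IgG was 1964 in hTERT-RPE1 and 1635 in U2OS, and rabbit IgG was 10 to 14 and 17 to 30 over the listed pieces. The HINFP library followed, with 2015 and 1471 ChIP sequences, while the other antibodies had 15 to 40 in hTERT-RPE1 and 8 to 50 in U2OS. Chromosome 19, 32427433 to 32432322, had 1670 and 1926 goat IgG sequences against 108 to 115 and 130 to 137 rabbit ones. Chromosome 4, 67946271 to 67949612, which is 15570 kb from the stretch, had 854 and 1727 goat IgG sequences against 115 to 145 and 323 to 345 rabbit ones. Chromosome 8, 43211617 to 43213242, had 1620 and 905 goat IgG sequences, 55 to 59 rabbit ones in hTERT-RPE1 and 36 in the only rabbit list of U2OS with a region there.

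Others were higher in rabbit IgG. At chromosome 20, 26136616 to 26138717, 129 kb from the stretch, rabbit IgG was 1934 to 1937 in hTERT-RPE1 and 1460 to 1464 in U2OS, against 459 and 402 goat IgG sequences. At chromosome 1, 154452637 to 154453488, far from the stretch (12976 kb), rabbit IgG was 1713 and 1251 in every rabbit list of the respective line, against 266 and 224 goat IgG sequences over a similar length. Their ChIP counts had the same order, with 1379 to 2064 sequences for the rabbit antibodies and 313 for HINFP in hTERT-RPE1 at the latter locus, and 1628 to 2472 and 287 in U2OS. The remaining locus of the 10, chromosome 2, 132741420 to 132752726, was the longest of all at 11307 bp. It had 1792 goat IgG sequences in hTERT-RPE1 as 1 region and 1377 in U2OS, and 839 to 873 and 586 to 609 rabbit ones split over 9 to 14 regions a list.

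The 41 loci with a member in every list lay on 16 chromosomes and were 483 to 11307 bp long, with 16 under 1 kb. Their highest count had a median of 307 and was never below 87, and 12 of them (29.3%) were within 1 Mb of the stretch. Between the lines the IgG density at most of these loci differed by less than 2-fold, with a median U2OS over hTERT-RPE1 ratio of 0.803 in the CASP8AP2 lists, 0.847 in NPAT, 0.909 in E2F1 and 0.919 in HINFP. It was over 2-fold higher in U2OS at 2, 2, 3 and 1 of the 41, and over 2-fold lower at 0, 2, 0 and 0. The first 3 of these comparisons share their IgG libraries.

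Some loci among them were short, far from the stretch and higher in rabbit IgG. At chromosome 17, 28173352 to 28174259, rabbit IgG was 619 in each list of hTERT-RPE1 and 473 to 477 in U2OS, and goat IgG was 72 and 56. At chromosome 1, 91625154 to 91625951, it was 738 and 570 against 480 and 325. At chromosome 11, 84872293 to 84873098, it was 491 and 390 against 259 and 184. At chromosome 17, 30502022 to 30502687, it was 326 and 296 against 209 and 160. The rabbit counts were higher than the goat counts in both lines at each, and the covered lengths were between 561 and 896 bp. These 4 loci were chosen for display after their values were seen. On chromosome 17 the distance is to a stretch that is not centromeric. Short loci far from the stretch also went the other way. At chromosome 14, 87307090 to 87307797, rabbit over goat density was 0.740 in hTERT-RPE1 and 0.668 in U2OS.

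Rabbit and goat IgG were compared per kb at loci with a region in the HINFP list and in at least 1 rabbit list of the same line, 299 in hTERT-RPE1 and 383 in U2OS. The median rabbit over goat density was 0.810 in hTERT-RPE1 and 0.966 in U2OS. Over both lines it was 0.912, and it depended on the IgG minimum, with 1.16 at a minimum of 30 and 0.714 at 100. Over the other listed regions shared by these lists, the ratio of the total densities was 1.29 to 1.32 in hTERT-RPE1 and 1.25 to 1.27 in U2OS, which is above the medians of the loci. Regions that hold a single pile were longer in the HINFP lists than in the rabbit lists, as given below with the Height share. That lowers goat density per kb for the same pile, and its part in these ratios was not tested. Within 1 Mb of the stretch the median was 0.617 (99 loci) and 0.698 (101 loci), and farther away 0.949 (200) and 1.11 (282). The spread was wide, with a ratio above 2 at 43 and 45 loci and below 0.5 at 96 and 88. A member had to be high in at least 1 species, which widens this spread.

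**Figure D3:**
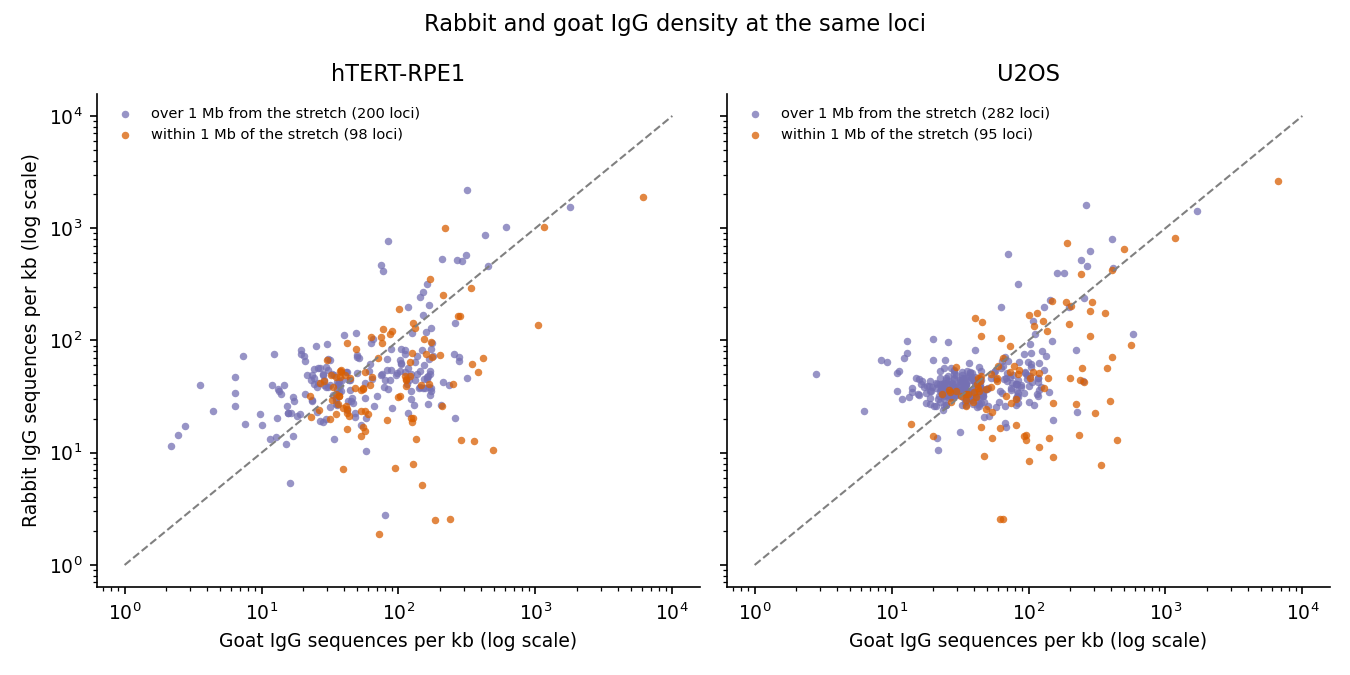
Rabbit IgG sequences per kb (y axis, log scale; the median over the rabbit lists with a region) against goat IgG sequences per kb (x axis, log scale) at each locus listed for both, in hTERT-RPE1 (left) and U2OS (right); colours give the distance to the longest unlisted stretch, the dashed line marks equal densities, and loci with 0 rabbit sequences are not drawn. Loci within 1 Mb extend to high goat and low rabbit density, with medians of 0.617 and 0.698.

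Across loci, the IgG balance between the species went together in both lines and with that in the ChIP libraries. Its level differed between IgG and ChIP. The median ChIP density ratio, rabbit antibodies over HINFP, was 1.15 in hTERT-RPE1 and 1.26 in U2OS, against 0.810 and 0.966 for IgG. Neither ratio is scaled for depth. Over 267 loci with a value in both lines, the log2 rabbit over goat ratio of hTERT-RPE1 followed that of U2OS with Pearson's r = 0.782 and Spearman's rho = 0.733, and at 210 loci it had the same sign. The log2 ratio of ChIP density, rabbit antibodies over HINFP, followed the IgG ratio with r = 0.626 and rho = 0.560 over 298 loci of hTERT-RPE1 and r = 0.686 and rho = 0.663 over 377 loci of U2OS. These are descriptions across loci, which share libraries, region ends and lengths. The loci were also chosen by a high IgG count in at least 1 species, which can raise these correlations. No such correlation was computed over other listed regions. The loci with the lowest ratios were at chromosome 2, 91653439 to 91654514, chromosome 10, 39122126 to 39122605, and the chromosome 10 locus at 41698061 described above. The first had 1 rabbit IgG sequence in 386 bp against 254 goat ones in 1076 bp in hTERT-RPE1, and the second 1 rabbit in each list against 88 goat. There CASP8AP2 and NPAT still had 34 to 64 ChIP sequences in hTERT-RPE1, and E2F1 had no listed region. At another 7 pairs of a locus and a line the rabbit IgG count was 0, which allows up to 3 sequences. The highest ratios, at chromosome 1, 77920415 to 77921528, chromosome 22, 26182023 to 26185580, and chromosome 12, 4517339 to 4518629, rested on 1, 1 and 2 goat IgG sequences and are not precise.

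The U2OS members outside the goat loci were grouped along a few chromosomes. Loci separated by gaps under 1 Mb formed 26 runs of at least 4 loci, with 278 of the 488 loci, a grouping chosen after seeing the data. Of the 170 loci with rabbit members in U2OS alone, 44 were on chromosome 8, 34 on chromosome 22, 17 on chromosome 14 and 14 on chromosome 17. In 7 runs, with 94 loci, at most 1 locus had a goat member and at most 1 had an hTERT-RPE1 member. They were at chromosome 22, 23431879 to 26646483 (32 loci), chromosome 8, 142079800 to 146199627 (23) and 29285790 to 30134077 (10), chromosome 17, 53305616 to 56849399 (11), chromosome 10, 46399745 to 46558400 (8), chromosome 18, 3236077 to 3784981 (6), and chromosome 14, 64240134 to 64355988 (4). The highest IgG count in them was 156. At chromosome 4, 190790964 to 190885228, 4 loci had a member in hTERT-RPE1 only and a highest count of 60. Non-member regions were dense there in both lines, at 7.99 to 27.5 times the list mean in hTERT-RPE1 and 3.06 to 8.33 times in U2OS.

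In these 7 runs all U2OS lists were dense, also in regions that were not members. Non-member regions per Mb were 3.77 to 9.60 times the list mean for CASP8AP2, 3.02 to 5.75 times for NPAT, 4.98 to 14.8 times for E2F1 and 6.36 to 27.9 times for HINFP in U2OS. In hTERT-RPE1 the range over the 4 lists was 0.956 to 7.89 times, with a median of 1.53, and its highest values were in the chromosome 10 run. The IgG density of the non-member regions in the runs was 1.28 to 1.89 times the list mean in U2OS, with a median of 1.56, and 0.948 to 1.73 times in hTERT-RPE1, with a median of 1.08. Goat IgG was above the list mean in the U2OS runs as rabbit IgG was (1.28 to 1.61 times in the HINFP list), although it gave a member at 1 of the 94 loci. Gains of chromosome segments were not measured here.

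**Figure D4:**
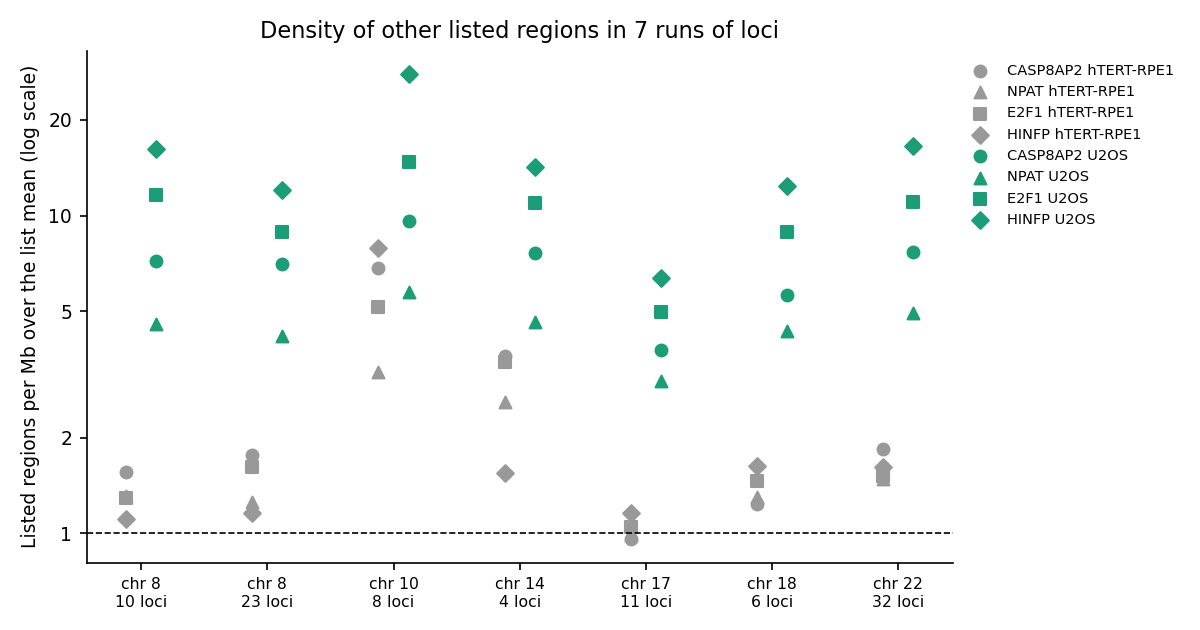
Listed regions per Mb with fewer than 50 IgG sequences in each of 7 runs of loci, divided by the mean of the same list over the autosomes (y axis, log scale), for the 8 lists (shape by antibody, green for U2OS, grey for hTERT-RPE1); the x axis names the chromosome and the number of loci of each run and the dashed line is the list mean. All U2OS values are above 3 (3.02 to 27.9), and hTERT-RPE1 values run from 0.956 to 7.89.

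The height of a locus above its surroundings set these groups apart. The local IgG level was the median IgG density of the list's other regions within 250 kb, where at least 5 were listed. For the members at loci in all 8 lists, the IgG density was a median of 8.02 times the local level, with a median density of 170 per kb. For members at loci with rabbit IgG in U2OS alone it was 1.30 times, with 36.2 per kb, a median length of 1594 bp and a median of 217 other listed regions within 250 kb. Of these latter members, 199 of 236 (84.3%) were under 2 times the local level, over a range of 0.681 to 12.9 times. Among members at loci in all 8 lists, 51 of 374 (13.6%) were, over a range of 0.715 to 425 times. Members at loci with rabbit IgG in hTERT-RPE1 alone had a median of 2.90 times. The median length of all listed regions in the rabbit lists of U2OS was 293 to 299 bp. At goat loci present in both lines the median was 4.14 times.

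The raw ratio of members was low in all lists, which follows in part from the rule, because the IgG count is its denominator. The median was 1.04, 0.962, 1.11 and 0.980 in the CASP8AP2, NPAT, E2F1 and HINFP lists of hTERT-RPE1, where all listed autosomal regions had 2.20, 2.33, 2.20 and 2.50. In U2OS it was 1.25, 1.23, 1.06 and 0.853, against 2, 2.20, 1.83 and 2. A ratio above 2 was found at 3 of 104 CASP8AP2, 2 of 93 NPAT, 2 of 120 E2F1 and 0 of 226 HINFP members in hTERT-RPE1, where 52.6%, 57.9%, 53.6% and 60.3% of all listed autosomal regions passed it. In U2OS it was found at 19 of 203, 10 of 174, 10 of 149 and 1 of 216 members, where 46.7%, 54.9%, 40.3% and 46.8% of all regions did. The rule used the IgG count, so nothing is read from the difference between these shares. Of all 1285 members, 47 (3.66%) were above 2, where 52.7% of all listed autosomal regions were, and the range was 0.0862 to 4.81.

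**Figure D5:**
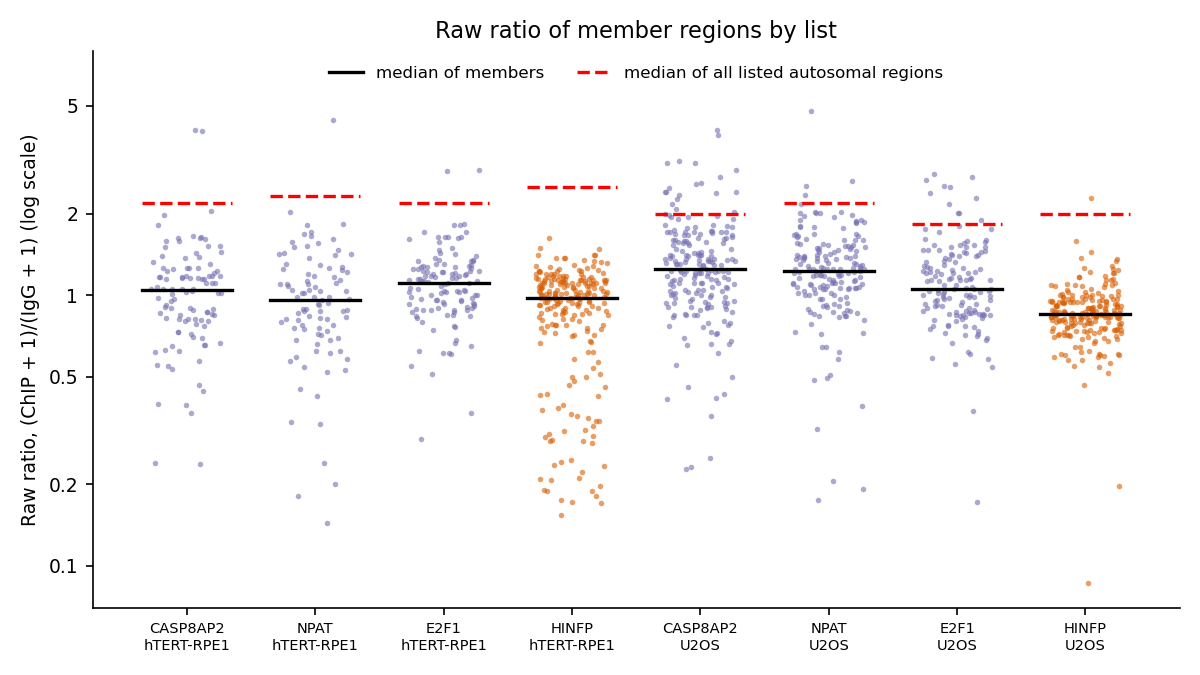
Raw ratio of every member region, (ChIP + 1)/(IgG + 1), on a log axis (y) in each of the 8 lists (x), with violet points for the rabbit lists and orange points for HINFP; black lines are medians of members and dashed red lines are medians of all listed autosomal regions of the list. Member medians are 0.853 to 1.25, and 41 HINFP points of hTERT-RPE1 lie below 0.5.

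The highest ratios were reached by CASP8AP2 and NPAT in a narrow part of a chromosome 10 locus near the unlisted stretch. At chromosome 10, 41716529 to 41717103, NPAT in U2OS had 629 ChIP against 130 IgG sequences, a ratio of 4.81 (95% exact interval 4 to 5.89). NPAT in hTERT-RPE1 had 248 against 55 at 41716530 to 41717103 (4.45, 3.36 to 6.15), and CASP8AP2 in hTERT-RPE1 226 against 55 at 41716711 to 41717103 (4.05, 3.05 to 5.62). Over the whole locus (41713169 to 41717385), CASP8AP2 had ratios of 3.21 and 2.73 and NPAT 3.65 and 3.30 in hTERT-RPE1 and U2OS. On the same measure E2F1 had 1.35 and 1.12 and HINFP 1.07 and 0.834. The other 2 of the 5 highest were CASP8AP2 in hTERT-RPE1 at chromosome 18, 98033 to 99698 (265 against 64; 4.09, 3.14 to 5.53), and CASP8AP2 in U2OS at chromosome 12, 20595457 to 20595936 (782 against 191; 4.08, 3.49 to 4.82).

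The chromosome 18 and 12 loci differed in how the lists shared the high ratio. Over the chromosome 18 locus, 97392 to 99841, the ratio was 4.09 for CASP8AP2 and 3.91 for NPAT in hTERT-RPE1 and 3.61 and 3.13 in U2OS, and E2F1 had 1.23 and 1.16. HINFP had 1.04 and 0.927 there on 781 and 589 goat IgG sequences. Over the chromosome 12 locus, 20595424 to 20595984, the ratio was 2.04, 1.72, 1.20 and 1.13 for CASP8AP2, NPAT, E2F1 and HINFP in hTERT-RPE1, and 4.08, 2.35, 1.36 and 0.910 in U2OS. Over the 41 loci in all lists, the median ratio was 1.57 for CASP8AP2 and 1.39 for NPAT in U2OS, and between 0.900 and 1.16 in the other 6 lists. A ratio above 2 over the whole locus was found for CASP8AP2 in U2OS at 14 of the 41 and for NPAT in U2OS at 8, of which 6 were shared, where 46.7% and 54.9% of all listed autosomal regions of these lists were above 2. The ratios are not corrected for library depth, and depth of the whole libraries was not used here.

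Below 0.5 lay 78 members, where 0.0478% of all listed autosomal regions of the 8 lists did, and 41 of them were in the HINFP list of hTERT-RPE1. That is 18.1% of its 226 members (95% Wilson interval 13.7 to 23.7%), where 0.272% of all its listed autosomal regions were below 0.5. The other lists of hTERT-RPE1 had 7 CASP8AP2, 8 NPAT and 2 E2F1 members below 0.5, with 0.0652%, 0.0423% and 0.0341% of all regions. In U2OS there were 8 CASP8AP2, 7 NPAT, 2 E2F1 and 3 HINFP members, with 0.0313%, 0.0199%, 0.0624% and 0.127% of all regions. The rule used the IgG count here too. The 41 HINFP members were short, with a median length of 380 bp, and 1 of them was within 1 Mb of the stretch. It was at chromosome 6, 28288707 to 28289018, where the stretch is on the short arm and not centromeric. The 41 were spread over 14 chromosomes, with 7 on chromosome 17 and 5 on chromosome 5.

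Most of the same sites were also listed in the other lists, where the median IgG count was smaller and the median ratio higher. Single sites went the other way, such as the chromosome 2 site at 27127014, where goat IgG was 75 in hTERT-RPE1 and 156 in the U2OS region that overlaps it. Goat IgG had a median of 61 sequences at these sites in hTERT-RPE1 and 42 in U2OS, where all 41 were also listed for HINFP and 16 had at least 50. The median raw ratio was 0.291 for HINFP in hTERT-RPE1 and 0.919 for HINFP in U2OS, with 1 of 41 below 0.5 in U2OS. Rabbit IgG had a median of 27 to 30 in the hTERT-RPE1 lists and 20 to 23.5 in those of U2OS. E2F1 had a region at all 41 in hTERT-RPE1, with a median ratio of 1.42 and none below 0.5. CASP8AP2 and NPAT had one at 29 and 33 in hTERT-RPE1, with medians of 0.708 and 0.733, and 6 and 3 of these were below 0.5. In U2OS, CASP8AP2, NPAT and E2F1 had one at 38, 30 and 38, with medians of 1.40, 1.14 and 1.25, and 0, 2 and 0 were below 0.5. The sites were chosen by a low ratio in the HINFP hTERT-RPE1 list, so the ratio there is a description.

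The 5 lowest ratios were found in 4 lists. The lowest was HINFP in U2OS at chromosome 3, 199384310 to 199384951, with 19 ChIP and 231 IgG sequences (0.0862, 95% exact interval 0.0486 to 0.131), and no other list had a region there. NPAT in hTERT-RPE1 had 12 against 89 at chromosome 16, 30876242 to 30876522 (0.144, 0.0671 to 0.247). At that locus, 30876061 to 30876739, E2F1 was at 0.306 in hTERT-RPE1 and NPAT and E2F1 at 0.338 and 0.324 in U2OS, so the excess of rabbit IgG was seen in both lines. HINFP in hTERT-RPE1 had 9 against 64 at chromosome 17, 8031520 to 8031807 (0.154, 0.0615 to 0.284), and 12 against 75 at chromosome 2, 27127014 to 27127357 (0.171, 0.0792 to 0.296). E2F1 in U2OS had 17 against 104 at chromosome 5, 43102717 to 43103109 (0.171, 0.0917 to 0.275), a locus where CASP8AP2 and NPAT in U2OS were at 0.320 and 0.321 and CASP8AP2 in hTERT-RPE1 at 0.233.

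The Height share, the percentage of a region's ChIP sequences that cover its summit, tells a single pile of sequences from a broad region. Its median over members was 49.7%, 59.2%, 46.3% and 64.9% in the CASP8AP2, NPAT, E2F1 and HINFP lists of hTERT-RPE1 and 26.4%, 28.6%, 35.1% and 61.6% in U2OS. Over all listed autosomal regions it was 80.0 to 88.9%, but these are shorter, with medians of 283 to 331 bp against 715 to 1418 bp for members. Set beside other listed regions with at least 50 ChIP sequences, the members were lower in 7 lists and higher for CASP8AP2 in hTERT-RPE1 (49.7% against 36.9%). Other regions with at least as many ChIP sequences as the lowest member had medians of 49.2 to 83.3%. For HINFP the regions with at least 50 had 86.8% in hTERT-RPE1 and 84.6% in U2OS. Over all lists together, members within 1 Mb of the stretch had a median of 69.0%, and the rest 38.5%. Each rabbit list had the higher median near the stretch. The HINFP lists went the other way, with 60.6% near against 68.6% in hTERT-RPE1 and 60.3% against 63.0% in U2OS. Members at loci with rabbit IgG in U2OS alone had 24.1%, and those at loci in all 8 lists 63.2%.

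In 36 members, 259 to 478 bp long, every ChIP sequence covered the summit. Those with the most ChIP sequences were CASP8AP2 in hTERT-RPE1 at chromosome 18, 16771936 to 16772332 (258 sequences), NPAT in U2OS at chromosome 10, 41720021 to 41720424 (196), and CASP8AP2 in U2OS at chromosome 19, 23045857 to 23046250 (192). Their IgG counts were 130, 77 and 79. The first 2 were narrow parts of goat-rich loci near the stretch, at which the HINFP regions covered 2798 to 3053 bp. The third was high in rabbit IgG, with 163 sequences in hTERT-RPE1 and 79 in U2OS against 42 and 17 goat ones. At the other end, HINFP in hTERT-RPE1 had 7.03% of 1721 ChIP sequences at the summit of the 11306-bp region on chromosome 2. Regions in which all of at least 30 ChIP sequences covered the summit had median lengths of 387 to 394 bp in the rabbit lists and 472 and 469 bp in the HINFP lists, so a region end does not mean the same distance in the HINFP lists as in the others.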

How the data were processed

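CASP8AP2, NPAT, HINFP, E2F1, rabbit IgG and goat IgG were immunoprecipitated from hTERT-RPE1 and U2OS cells and sequenced, with 1 library each and no replicates. The authors mapped the sequences to NCBI36 (hg18, per the labels) and deposited 1 list of regions per protein and line, called without pooling. The aligner, the caller and the handling of duplicates are not given in the sources used here. The deposited counts are whole numbers of ChIP and IgG sequences per region, not scaled for depth, and the deposited Height is a signal, the number of ChIP sequences piled at the summit, at least 8 in every list. The authors' own fold change and p-value columns compare ChIP with IgG and were not used. Reads placed at many sites can add to counts at repeats, and the rule for placing them is not given in the sources used here.

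Over the listed autosomal regions, the lists summed to 490310 to 5880031 ChIP and 287788 to 2624607 IgG sequences. The totals of the whole libraries were not used, so ratios are raw, (ChIP + 1)/(IgG + 1). Intervals (exact Clopper-Pearson for ratios, Wilson for shares, both at 95%) cover counting error only, and sequences without molecular identifiers are not independent molecules. Regions of a list did not overlap each other. They were merged over lists where they overlapped by 1 bp. Lengths are end minus start plus 1. Values of a locus in a list are sums over all regions of that list that overlap it, divided by their covered length where given per kb. No test was made, because the IgG count chose the members and each group has 1 library. The members and lists were chosen with earlier results of these data known. Named regions followed a rule: the 10 loci with the highest IgG count, the loci with a member in all 8 lists, the 5 highest and 5 lowest raw ratios, the 3 highest and 3 lowest rabbit over goat densities above 0, the 3 highest Height shares with ties broken by ChIP count, and 3 regions on either side of the threshold. Other named regions were chosen after their values were seen. The alternatives were IgG minimums of 30 and 100, other merging, other distances, other ratio limits and pseudocounts, a density limit, and each list left out in turn. The code was tested on simulated regions. Intervals came from scipy 1.17.1, tables from pandas 2.3.3 on numpy 2.4.6, and plots from matplotlib 3.10.9, under Python 3.11.15. No NCBI36 genome or annotation was used here.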

Additional observations from a re-analysis of the deposited data

Results flagged for a closer look

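Counts of at least 50 IgG sequences were also seen outside the autosomes, in data that no comparison above uses. There were 29 such regions on the mitochondrial chromosome over the 8 lists, and 50 on unplaced contigs. On the mitochondrial chromosome the highest region had 14841 rabbit IgG sequences in hTERT-RPE1 and 27183 in U2OS, against 1137 and 1257 goat IgG sequences. Its ChIP counts were 10158 to 23327 for the rabbit antibodies and 1266 for HINFP in hTERT-RPE1, and 20922 to 32511 and 1142 in U2OS. On the contigs the highest region had 7847 rabbit IgG sequences in hTERT-RPE1 and 6165 to 6167 in U2OS, against 1174 and 892 goat IgG sequences. Rabbit counts were thus higher than goat counts in both lines at both kinds of region. No group had enough samples for a check of single samples that stand apart.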

How the results depend on the processing

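No paired analysis was possible because each protein and line has 1 library and no test was made. Of 75 values under an alternative, 47 stayed within the interval of the main value, or within 1.5 times for a count, and 28 did not. With an IgG minimum of 30 there were 2194 loci, 365 of them in both lines and 212 in rabbit and goat lists of the same line (main value 74), 11.2% lay near the stretch, 4.94% of members had a ratio above 2, and the medians were 1.06 for the raw ratio, 40.6% for the Height share and 1.16 for rabbit over goat density (main value 0.912 over both lines). With a minimum of 100 the loci were 132, 73 and 35, 50% lay near the stretch, and the Height share and rabbit over goat medians were 59.0% and 0.714. Requiring 50 per kb as well left 297 loci, with 37.4% near the stretch, a median ratio of 0.937 and a Height share of 67.3%. Merging within 10 kb gave 109 loci in both lines. The share near the stretch was 43.0% within 5 Mb and 16.8% within 200 kb. A ratio above 1.5 was found at 13.6% of members and above 5 at 0%. Without division by length, rabbit over goat was 0.827. Leaving out HINFP U2OS gave 81 loci in both lines and a median ratio of 1.09, leaving out HINFP hTERT-RPE1 gave 87 loci in both lines, and leaving out CASP8AP2 U2OS gave 2.59% of members above 2. The density limit and the lists left out were chosen after seeing the data. The cause of these shifts was not tested beyond what each setting changes by construction. Counts near 50 carry a counting error that moves regions across the minimum.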
